A study of Homo sapiens with 12 samples.

Results

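The Asp, Asn, His and Tyr codons ending in C or U were examined in ribosome and disome profiles of human embryonic kidney cells. Members were the rows for these 4 amino acids in both tables, which gave 8 of 61 sense codons in each. They are GAC and GAU for Asp, AAC and AAU for Asn, CAC and CAU for His, and UAC and UAU for Tyr. All 8 have A as the middle base and C or U as the last, and the first base alone sets the amino acid. The cells were wild type (WT) or carried a CRISPR-Cas9 deletion of THUMPD1 (KO), the adapter that NAT10 needs to acetylate the tRNAs for Leu and Ser. They were a HEK293 line in the sample labels and HEK-293T in the methods, and were grown in DMEM with fetal bovine serum. KO cells had received a pair of guides and candidate clones were sorted as single cells, and the number of clones behind the libraries was not given. In all, 12 libraries were analysed. Monosome footprints, which single ribosomes protect from nuclease, gave 8 libraries with 4 per genotype. Disome footprints, which stacked ribosomes protect, gave 4 libraries with 2 per genotype.

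These codons share a way of being read. In the cell, the tRNAs for Asp, Asn, His and Tyr are transcribed with G at the wobble base, the first base of the anticodon, which faces the last base of the codon. The tRNA-guanine transglycosylase made of QTRT1 and QTRT2 can replace that G by queuine, a base that animals obtain from diet and bacteria, and the modified nucleoside is queuosine. On the tRNAs for Asp and Tyr the queuosine can carry a further sugar, mannose or galactose. One kind of tRNA thus reads the codon ending in C, by a standard pair, and the codon ending in U, by a wobble pair. Whether the tRNAs of these cells carried queuosine was not measured here.

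Of the nuclear tRNA genes named in RefSeq (GRCh38.p14), 13 for Asp had the anticodon GTC, 22 for Asn had GTT, 9 for His had GTG and 12 for Tyr had GTA. Genes with A in place of that G numbered 0 for Asp, 0 for Asn, 0 for His and 1 for Tyr. One gene for each amino acid is shown, to place the base that can become queuosine. Each was read 5′ to 3′ on the plus strand of hg38, and capitals mark the anticodon, whose first letter is that base.

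Asp, TRD-GTC1-1, chr12:98503503-98503574: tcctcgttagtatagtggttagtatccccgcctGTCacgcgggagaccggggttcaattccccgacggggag
Asn, TRN-GTT1-1, chr1:161540241-161540314: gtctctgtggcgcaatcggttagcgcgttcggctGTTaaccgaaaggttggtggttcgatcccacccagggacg
His, TRH-GTG1-1, chr1:146038044-146038115: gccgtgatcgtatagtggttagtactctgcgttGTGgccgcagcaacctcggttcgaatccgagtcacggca
Tyr, TRY-GTA1-1, chr6:26568858-26568948: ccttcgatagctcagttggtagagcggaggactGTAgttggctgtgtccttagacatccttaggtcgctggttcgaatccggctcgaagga

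The genes for Asp and His hold 72 bases and that for Asn 74. The gene for Tyr holds 91 bases, because Tyr tRNA genes carry an intron near the anticodon. In the 4 genes a G opens the anticodon and a T precedes it.

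The measured value was the relative occupancy of a codon, a ratio without unit that compares the footprints at that codon with a baseline of the same library. The mean over the 61 codons was between 0.949 and 1.00 in the 12 libraries, so a value above 1 marks a codon where ribosomes were found more often than average. The study assigned these values to the A site, where the incoming tRNA is read. In disomes this was that of the ribosome in front. Read depth is unknown, and the spread between libraries is the only error given. Gene-level values were not part of these tables, so neither the deletion nor the cell type was checked. The study calls the libraries biological replicates but the labels do not say that cultures were separate, so p-values measure the spread between libraries, which may be technical.

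The 4 amino acids differed in occupancy, and their order depended on the kind of footprint. In monosomes the Asp codon GAC ranked 2 of 61 by mean occupancy, and the Tyr codons UAC and UAU ranked 4 and 5. The Asp codon GAU ranked 11, the His codons CAC and CAU 14 and 16, and the Asn codons AAC and AAU 27 and 36. In disomes GAC ranked 2 and GAU 4, but the Tyr codons ranked 25 and 23, below which came His with 26 and 27 and Asn with 34 and 37.

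**Figure D1:**
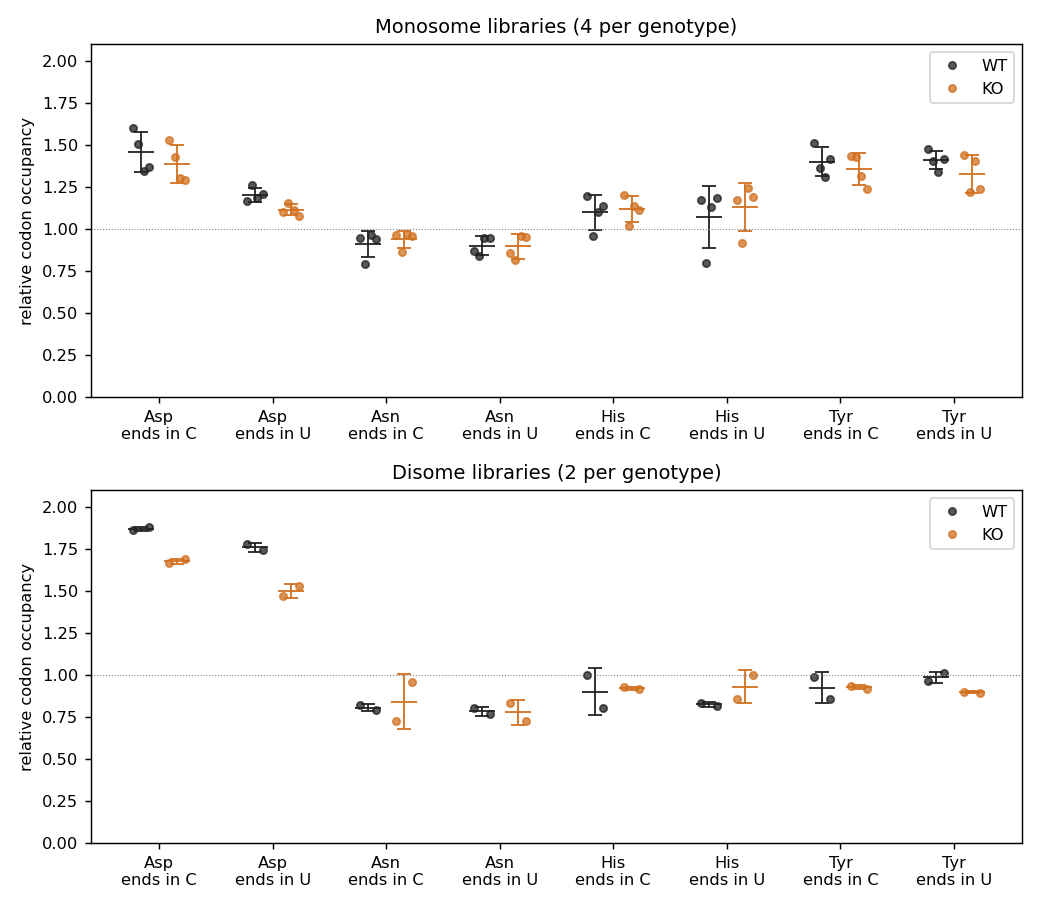
Relative codon occupancy (y axis, a ratio without unit) of the 8 codons in monosome (top) and disome (bottom) libraries. Points are libraries, wide ticks are means and bars are SD over 4 or 2 libraries of a genotype, and the dotted line marks 1. Both Asp codons sit higher in the lower panel and both Tyr codons sit lower there.

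Both Asp codons lay above 1 in every library. In WT monosome libraries 1 to 4 the occupancy of GAC was 1.60, 1.51, 1.35 and 1.37, and in KO libraries 1.53, 1.43, 1.30 and 1.29. For GAU it was 1.17, 1.26, 1.18 and 1.21 in WT, and 1.10, 1.16, 1.12 and 1.08 in KO. The genotypes overlapped for GAC, and every KO library was below every WT library for GAU. In disomes GAC had an occupancy of 1.86 and 1.88 in WT and of 1.67 and 1.69 in KO. For GAU the disome occupancy was 1.78 and 1.74 in WT and 1.47 and 1.53 in KO. The KO libraries were the lower ones for both Asp codons.

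Tyr codons were high in monosomes alone. UAC had an occupancy of 1.51, 1.36, 1.31 and 1.42 in WT monosomes and of 1.43, 1.43, 1.32 and 1.24 in KO. UAU had 1.47, 1.40, 1.34 and 1.42 in WT and 1.44, 1.22, 1.41 and 1.24 in KO. The genotypes overlapped for both. In disomes UAC had 0.992 and 0.859 in WT and 0.936 and 0.919 in KO, which overlapped, while UAU had 0.964 and 1.01 in WT and 0.902 and 0.895 in KO, with KO the lower.

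In monosomes the His codons lay above 1 in most libraries and the Asn codons below 1 in all. CAC had an occupancy of 1.20, 0.958, 1.10 and 1.14 in WT monosomes and of 1.20, 1.02, 1.14 and 1.11 in KO. CAU had 1.17, 0.798, 1.13 and 1.18 in WT and 1.17, 0.918, 1.24 and 1.19 in KO. Library 2 was the lowest of each genotype for both His codons. The Asn codon AAC had 0.944, 0.793, 0.962 and 0.942 in WT monosomes and 0.965, 0.864, 0.968 and 0.959 in KO. AAU had 0.869, 0.842, 0.946 and 0.949 in WT and 0.859, 0.813, 0.961 and 0.954 in KO. Library 2 was again the lowest of each genotype, and the genotypes overlapped for all 4 of these codons. In disomes the His codons lay between 0.802 and 1.00 and the Asn codons between 0.727 and 0.958. The disome genotypes overlapped for CAC and both Asn codons, and CAU was higher in KO, with 0.862 and 1.00 against 0.836 and 0.818 in WT.

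Some neighbours in this order did not differ beyond their spread. Over the 8 monosome libraries GAC was above UAC in 5, with a mean gap of 0.04 ± 0.06 on the log2 scale (SD, n = 8). UAC was above UAU in 4 of 8, GAU above CAC in 4 of 8 and CAC above CAU in 4 of 8, and each of these mean gaps was smaller than its SD. Larger steps held in all 8 libraries. UAU was above GAU by 0.24 ± 0.11 on the log2 scale, and CAU was above AAC by 0.24 ± 0.13. Among the 4 disome libraries the step from GAU to UAU was 0.79 ± 0.07 (SD, n = 4) and held in each. GAC was above GAU in 4 of 4 by 0.12 ± 0.05. Between neighbours among the Tyr, His and Asn codons the disome order was unclear. Each of these mean gaps was smaller than its SD, although CAU was above AAC in 4 of 4 libraries. Codons further apart could differ, as UAU ranged from 0.895 to 1.01 in disomes and AAU from 0.727 to 0.832.

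The tables may have been normalized separately, so footprint kinds were set side by side without a test. Both Asp codons had a higher occupancy in each disome library than in any monosome library. GAC ranged from 1.29 to 1.60 in monosomes and from 1.67 to 1.88 in disomes, and GAU from 1.08 to 1.26 and from 1.47 to 1.78. Both Tyr codons had a lower occupancy in each disome library than in any monosome library. UAC ranged from 1.24 to 1.51 in monosomes and from 0.859 to 0.992 in disomes. The His and Asn codons overlapped between the kinds, although their group means were lower in disomes for both genotypes. Codons outside the members were also apart between the kinds, in both directions, so being apart was not particular to the members. Their share of the 61 was not counted. Among those higher in disomes were the Pro codons CCA and CCC and the Gly codons GGA and GGU. Among those lower in disomes were the Cys codon UGC, the Met codon AUG and the Ser codons AGU and UCU. The Pro codon CCU, chosen after its values were seen, ranged from 0.887 to 0.992 in monosomes and from 1.19 to 1.55 in disomes. The Cys codon UGU, chosen likewise, ranged from 0.811 to 1.03 in monosomes and from 0.478 to 0.641 in disomes.

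To ask whether loss of THUMPD1 changed occupancy at these codons, KO was compared with WT by limma over all 61 codons of a table. In monosomes no member passed the test. The count was 0 of 8 at an adjusted p under 0.05, where 6.56% of all codons passed, and 1 of 8 at an unadjusted p under 0.05, where 13.1% passed. The median log2 change of the members was -0.03, against -0.0024 over the 61 codons, with 3 of 8 members above 0. GAU was the codon with the unadjusted call. It went from a mean of 1.20 ± 0.0417 (SD, n = 4) in WT to 1.11 ± 0.0321 in KO, which is -0.11 ± 0.05 (SE) on the log2 scale (limma, adjusted p = 0.305). It was lower in 4 of 4 same-numbered pairs, by between 0.08 and 0.16 on the log2 scale. Of the members 1 had all KO libraries below all WT libraries, where 3.28% of the 61 codons did, and 0 had all above, where 6.56% did.

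Same-numbered monosome libraries deviated together, so the replicate number was also fitted as a block. Then 0 of 8 members passed, where 13.1% of all codons did, and the adjusted p of GAU was 0.0535 (limma, blocked). When the fit with the block was also corrected for codon base composition, GAU passed with a log2 change of -0.13 (limma, adjusted p = 0.0207) and UAU with -0.14 (adjusted p = 0.0309). Over all alternatives but leaving out a library the adjusted p ranged from 0.0207 to 0.778 for GAU and from 0.0309 to 0.979 for UAU (limma or exact permutation). The other members had log2 changes from -0.09 for UAU to 0.09 for CAU without these terms. GAC was lower in 4 of 4 pairs by between 0.05 and 0.09, with a log2 change of -0.07 (95% confidence interval -0.24 to 0.10). This change was -0.02 without WT library 1 and -0.12 without KO library 1. AAC was higher in 4 of 4 pairs, by between 0.01 and 0.12. Codons outside the members also kept 1 direction in 4 of 4 pairs, and their share was not counted. Among them the Glu codons GAA and GAG and the Ala codons GCC, GCG and GCU were lower. The Ala codon GCA and the Leu codons CUG and UUA were higher. The pair counts of GAU, GAC and AAC were thus not particular to the members. Without WT library 2, in which AAC and both His codons were low, the changes were -0.02 for AAC, -0.04 for CAC and -0.05 for CAU, in place of 0.05, 0.03 and 0.09. Intervals of all members but GAU included 0, which does not show that the codons were alike in both genotypes.

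**Figure D2:**
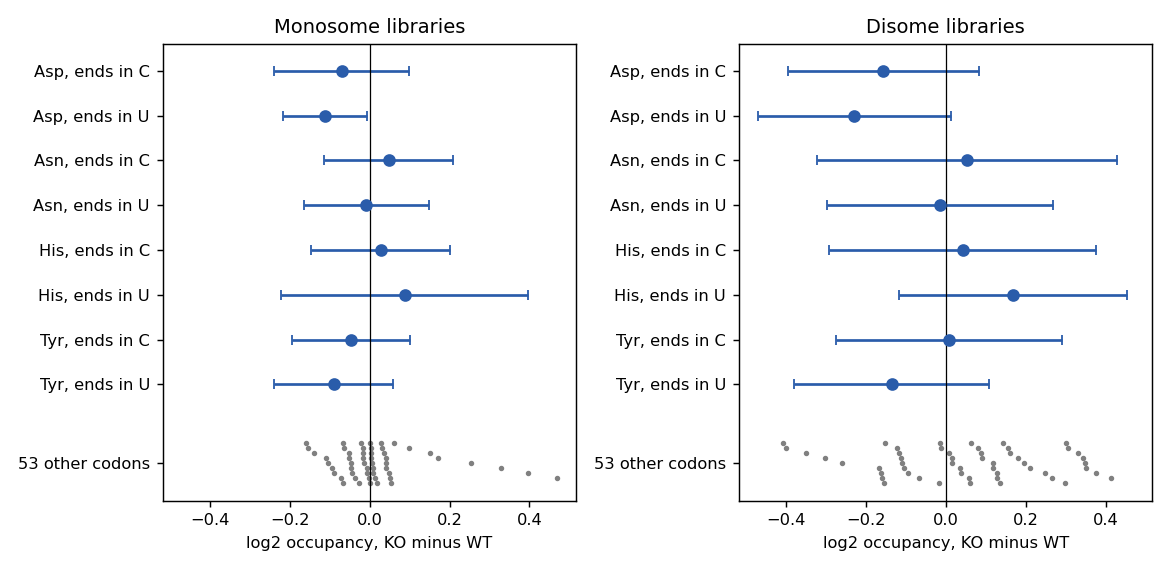
Difference in log2 occupancy, KO minus WT (x axis), for the 8 codons in monosome and disome libraries. Blue points are limma estimates with 95% confidence intervals, and grey points are the 53 other codons, spread vertically so that they can be seen. GAU, the Asp codon ending in U, has the only interval that leaves out 0, in monosomes.

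In disomes the count was again 0 of 8 at an adjusted p under 0.05, where 0% of the 61 codons passed, and 0 of 8 at an unadjusted p under 0.05, where 16.4% passed (limma). GAU had the lowest change among the members, from 1.76 ± 0.0269 (SD, n = 2) in WT to 1.50 ± 0.0418 in KO. This was -0.23 ± 0.10 (SE) on the log2 scale (limma, adjusted p = 0.281), and GAC had -0.16 ± 0.10 (adjusted p = 0.435). The signs of both Asp changes turned under quantile normalization, to 0.04 each. When limma's prior followed the mean level and was made robust, GAU passed (limma, adjusted p = 0.0428), where its other alternatives reached up to 0.879. All KO libraries were below all WT libraries for 3 of 8 members, both Asp codons and UAU, where 23.0% of the 61 codons were. All were above for 1 of 8, CAU, where 29.5% were. The median change of the members was -0.0041 on the log2 scale, against 0.04 over the 61 codons.

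The codon ending in C was then set against that ending in U for the same amino acid, as the log2 ratio of their occupancies in each library. This ratio cancels any factor that a library applies to all codons, and it compares codons that the same tRNA reads. Asp codons differed in monosomes, and Asn, His and Tyr codons did not pass the test. For Asp the log2 ratio was 0.46, 0.26, 0.19 and 0.19 in WT libraries 1 to 4, and 0.47, 0.31, 0.22 and 0.26 in KO. It was above 0 in 8 of 8 libraries, and library 1 was the highest of each genotype. The mean over both genotypes was 0.29 with a standard error of 0.03, so GAC was occupied 1.22 times as much as GAU (95% confidence interval 1.17 to 1.28). Its adjusted p was 2.4e-13 by limma, which here pools the spread over the 16 pairs of codons ending in C and U. The interval rests on the same pooling. With the mean of each same-numbered pair of libraries as 1 value the adjusted p was 2.2e-09 by limma. The same standard error of 0.036 was then used for every pair of codons, so the spread of Asp itself did not enter. An exact sign-flip permutation test gave an adjusted p of 0.0208, with the 8 libraries taken as independent. With 4 values its smallest p would be 0.125, so it could not pass.

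**Figure D3:**
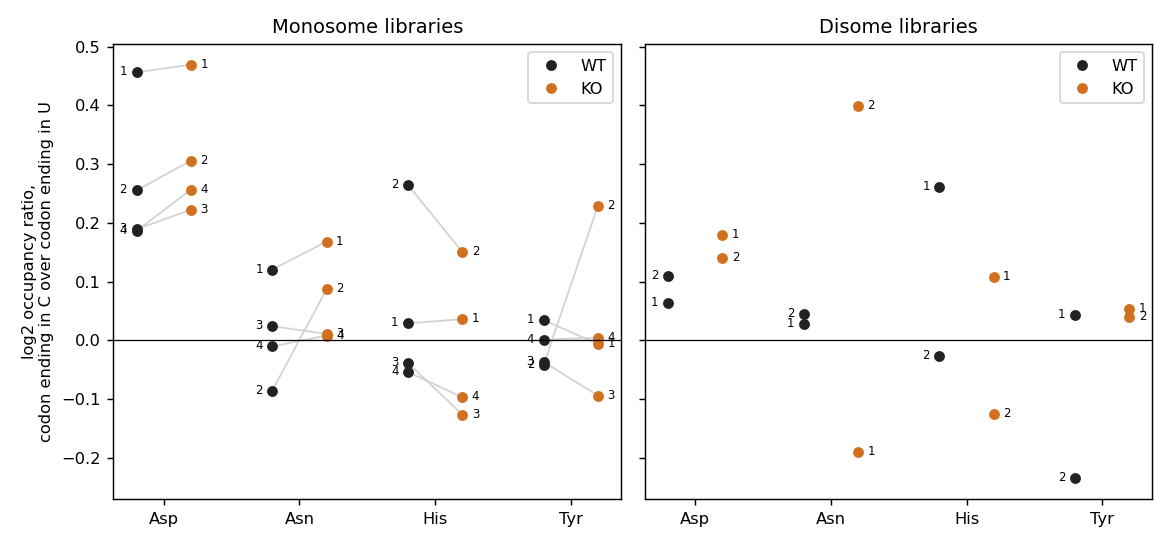
Log2 ratio of the occupancy of the codon ending in C over that ending in U (y axis) for the 4 amino acids, in each monosome and disome library. Points are libraries with their replicate number, and grey lines join monosome libraries of the same number. The Asp ratio is above 0 in every library of both kinds, while the others fall on both sides of 0.

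For Asn the log2 ratio was 0.12, -0.09, 0.02 and -0.01 in WT monosomes and 0.17, 0.09, 0.01 and 0.01 in KO. The codon ending in C was thus the higher in 6 of 8 libraries, and the mean of 0.04 corresponded to a factor of 1.03 (95% confidence interval 0.987 to 1.07, limma adjusted p = 0.264). For His the ratio was 0.03, 0.26, -0.04 and -0.05 in WT and 0.04, 0.15, -0.13 and -0.10 in KO. Library 2 was the highest of each genotype, and libraries 3 and 4 were below 0. The mean of 0.02 corresponded to a factor of 1.01 (0.971 to 1.06, limma adjusted p = 0.555). For Tyr the ratio was 0.03, -0.04, -0.04 and 0.001 in WT and -0.01, 0.23, -0.09 and 0.005 in KO. KO library 2 stood above the others, and the mean of 0.01 corresponded to a factor of 1.01 (0.966 to 1.05, limma adjusted p = 0.712).

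Thus 1 of 4 members passed in monosomes, where 37.5% of the 16 pairs did, and the same share passed with means of same-numbered libraries. All 4 members had a mean ratio above 0, as had 10 of the 16 pairs, and the intervals of Asn, His and Tyr included 0. Asp had the highest ratio of the 16 pairs, followed by Val with 0.16, and Cys had the lowest with -0.18 (limma, adjusted p = 4.8e-07). The median was 0.03 over the 4 members and 0.03 over the 16 pairs. The 16 pairs fall into 8 whose nuclear tRNA genes have mostly G at the wobble base and 8 with mostly A, which cells convert to inosine. Apart from the members, the pairs read by G are those of Cys, Phe, Gly and the Ser codons AGC and AGU. Their mean log2 ratios lay between -0.18 and -0.02 with 0 of 4 above 0, and those of the pairs read by inosine lay between -0.16 and 0.16 with 6 of 8 above 0. In disomes the other pairs read by G had ratios from -0.15 to 0.15 with 2 of 4 above 0, and those read by inosine from -0.39 to 0.20 with 5 of 8 above 0. No test was made between these classes, which hold different codons.

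**Figure D4:**
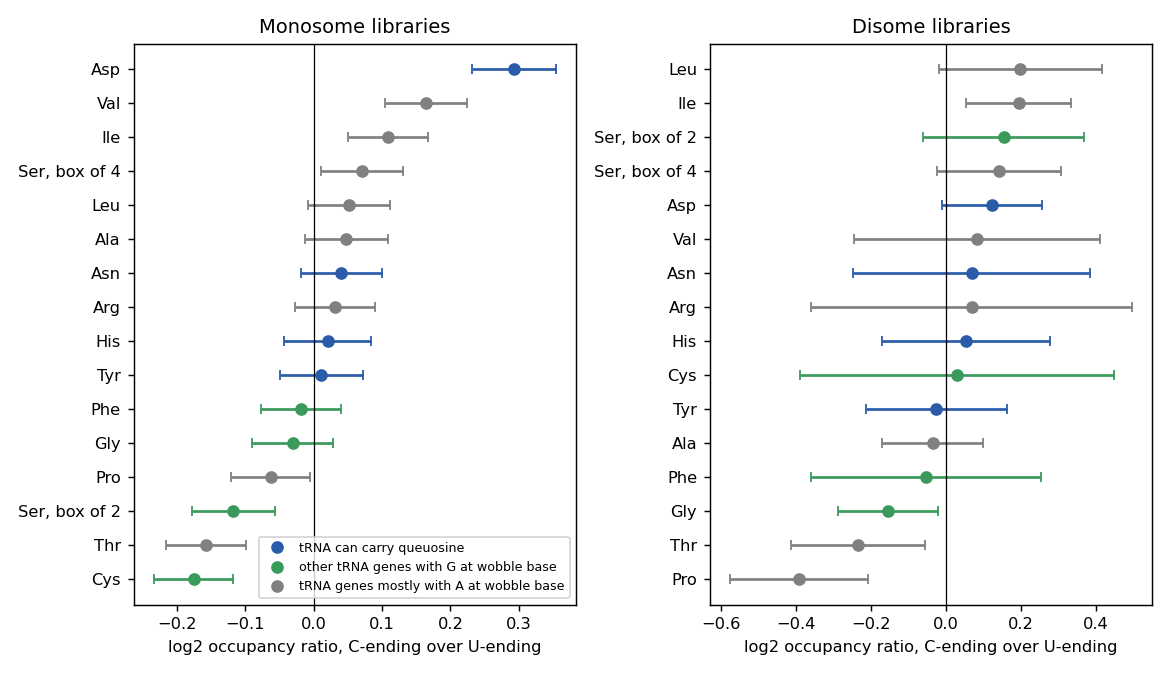
Mean log2 occupancy ratio of the codon ending in C over that ending in U (x axis), for the 16 pairs in monosome and disome libraries, sorted by value, with 95% confidence intervals from limma. Blue marks the 4 amino acids whose tRNAs can carry queuosine, green other pairs read by tRNA genes with G at the wobble base, and grey pairs with mostly A there. Asp is the highest pair in monosomes and ranks 5 in disomes.

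In disomes the Asp log2 ratio was 0.06 and 0.11 in WT and 0.18 and 0.14 in KO. It was above 0 in 4 of 4 libraries and below every monosome value. Its mean of 0.12 corresponded to a factor of 1.09 (95% confidence interval 0.993 to 1.20, limma adjusted p = 0.171), and it ranked 5 of 16 pairs. For Asn the ratio was 0.03 and 0.05 in WT and -0.19 and 0.40 in KO, and the KO libraries lay on opposite sides of WT. For His it was 0.26 and -0.03 in WT and 0.11 and -0.13 in KO. For Tyr it was 0.04 and -0.24 in WT and 0.05 and 0.04 in KO. These ratios had means of 0.07, 0.05 and -0.03 and did not pass the test (limma, adjusted p = 0.763, 0.763 and 0.779). The count was 0 of 4 members, where 0% of the 16 pairs passed. The lowest disome pair was Pro with -0.39 and the highest Leu, for CUC over CUU, with 0.20.

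Last, the ratio was compared between genotypes, to ask whether the preference for the codon ending in C or U changed with loss of THUMPD1. No member passed in either table. In monosomes 0 of 4 passed, where 0% of the 16 pairs did, with 0% also at an unadjusted p under 0.05 and 0% with the replicate block (limma). The Asp ratio was higher in KO in 4 of 4 same-numbered pairs, by 0.04 with a standard error of 0.06 (95% confidence interval -0.08 to 0.17, limma adjusted p = 0.799). Outside the members the Phe ratio was also higher in 4 of 4 pairs, and the Ala ratio was lower in 4 of 4. For Asn the difference was 0.06 (-0.06 to 0.18), for His -0.06 (-0.19 to 0.07) and for Tyr 0.04 (-0.08 to 0.17). The Asp value was -0.01 without KO library 1. The Tyr value was -0.02 without KO library 2, and the His value 0.01 without WT library 2. In disomes 0 of 4 members passed, where 0% of the 16 pairs did, and 6.25% passed at an unadjusted p under 0.05, among which was no member (limma). The Asp difference was 0.07 with an interval from -0.20 to 0.34, and every KO library was above every WT library. With 2 libraries per genotype this also held for the Pro ratio. For Ile, Gly and the Ser codons UCC and UCU every KO ratio was below every WT ratio. Asn had 0.07 (-0.57 to 0.70), His -0.13 (-0.57 to 0.32) and Tyr 0.14 (-0.23 to 0.52). The Tyr value was 0.0040 without WT library 2 and 0.28 without WT library 1.

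Across the 8 monosome libraries some members varied together. The nearest codon to AAC was CAU, with a Pearson's r of log2 occupancy of 0.978, and the nearest to CAC was also CAU, with 0.908. GAC and UAC were nearest to each other, with 0.828. AAU was nearest to the Ile codon AUU (r = 0.970), GAU to the Ala codon GCC (r = 0.826) and UAU to the Ile codon AUA (r = 0.598). Each of these was chosen as the highest r of 60. Between the codons ending in C and U of an amino acid r was 0.347 for Asp, 0.504 for Tyr, 0.674 for Asn and 0.908 for His. All these values describe 8 libraries in which genotypes and replicate numbers are shared.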

How the data were processed

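Per the labels and methods, ribosome and disome footprints were sequenced from WT and THUMPD1 KO cells lysed with cycloheximide and digested with RNase I. The authors trimmed reads, removed those on noncoding RNA with STAR, mapped the rest uniquely to canonical transcripts (hg19, from the submitters' processing notes) and deposited a linear ratio, the relative occupancy per codon and library. The denominator and coverage minimum are not given in the sources used here, and depth is unknown. A rise at some codons can lower others, since each library has its own baseline. All 12 columns were used.

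Values were taken as log2 without a pseudocount, each table on its own. Genotypes were contrasted in limma (version 3.58.1, under R 4.3.3), without a replicate block, with Benjamini-Hochberg adjustment over 61 codons or over the 16 C and U pairs, at a threshold of 0.05. The ratio was tested against 0 as the mean of both genotypes. Alternatives were a pseudocount, other scalings, a filter on low values, a base composition term, a replicate block, other limma priors, exact permutation, a linear scale and leaving out each library. Means of same-numbered libraries were added after seeing the data. Scripts were tested on simulated data. Members and tests were chosen with earlier results of these data known. Named were all members, the highest and lowest other pair per table, and the codon nearest to each member by Pearson's r. Any other codon or pair named was chosen after its values were seen.

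Replicate numbers came from the labels. Deviations from group means over the 61 codons correlated between same-numbered monosome libraries with r of 0.669, 0.872, 0.534 and 0.686. These were therefore also compared as pairs, with a replicate block or as means. The main fits took all libraries as independent. WT library 3 correlated more with KO library 4 (r = 0.776) than with the library of its own number. In disomes, with 2 libraries a genotype, r was 0.0212 over codons and 0.451 over the C and U ratios. That is too few pairs to decide, and the numbers entered only in the alternatives with a replicate block.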

Additional observations from a re-analysis of the deposited data

Results flagged for a closer look

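In the Asn codon AAC, library 2 stood apart from the other 3 monosome libraries of its genotype. It had an occupancy of 0.793 against 0.942 to 0.962 in WT, and 0.864 against 0.959 to 0.968 in KO. The His codon CAU had 0.798 in WT library 2 against 1.13 to 1.18 in the others. In these 3 groups the gap to the nearest library was 0.880, 0.919 and 0.863 of the range, which exceeds the limit of Dixon's test. Among the 24 groups of 4 libraries examined 3 stood out, where chance gives about 1 in 20, or 1.2. Without WT library 2 the log2 change of AAC in KO was -0.02 in place of 0.05, and that of CAU -0.05 in place of 0.09. The cause was not tested.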

How the results depend on the processing

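Over the alternatives other than leaving out a library, the monosome Asp ratio of GAC over GAU stayed above 0. It lay between 0.27 and 0.29 on the log2 scale and passed in each, where the exact test took the 8 libraries as independent. Without 1 library it ranged from 0.26 to 0.31. The cause of the changes below was not tested. Depth limits are unknown.

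Between KO and WT 4 monosome codons passed (0 of them members), and 8 did with the replicate block. With the replicate block and base correction 10 passed (2 members), and with the exact permutation test 0 did (6 unadjusted). The smallest p of that test, 0.0286, could pass adjustment only if many more codons reached it. Without 1 library the count in the main fit was 3 to 4. Among monosome ratios 1 pair differed between genotypes with the block and base correction, and 0 otherwise. The block changed no call of a member. In disomes the number of codons was 4 with the trend and robust prior (1 member), and 0 to 3 without 1 library, where a genotype has 1 library left that is assumed to vary like the others. The number of disome ratios away from 0 was 1 on the linear scale, 5 with the trend and robust prior (1 member, Asp, adjusted p = 0.0481, with 0.333 the highest among its alternatives), and 0 to 1 without 1 library. The exact tests in disomes, with smallest p of 0.333 and 0.125, could not pass.

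Small values changed sign. In monosomes the log2 change was -0.0109 for CAC with quantile normalization and 0.0186 for AAU with centring on codons for neither Leu nor Ser. In disomes quantile normalization gave -0.00487 for AAC, 0.0361 for GAC, 0.0402 for GAU and -0.0239 for UAC. Median centring gave -0.0423 for AAC, -0.0528 for CAC and -0.0882 for UAC. Correcting for base composition gave -0.0111 for UAC, also when combined with the replicate block. Under quantile normalization the monosome His ratio was -0.00044, the disome Tyr ratio 0.0118 and the disome Asp difference between genotypes -0.00413.

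Without 1 monosome library the change ranged from -0.0175 to 0.0869 for AAC, -0.0433 to 0.0367 for AAU, -0.0366 to 0.0713 for CAC and -0.0486 to 0.184 for CAU. It stayed below 0 but ranged from -0.118 to -0.0237 for GAC, -0.0781 to -0.0042 for UAC and -0.131 to -0.0516 for UAU. The ratio ranged from -0.0152 to 0.0401 for His and -0.0214 to 0.0326 for Tyr, and its difference between genotypes from -0.113 to 0.0120 for His, -0.0102 to 0.103 for Asp and -0.0212 to 0.0867 for Tyr. Without 1 disome library the change ranged from -0.145 to 0.249 for AAC, -0.113 to 0.0830 for AAU, -0.118 to 0.202 for CAC and -0.0971 to 0.110 for UAC. The ratio ranged from -0.0773 to 0.218 for Asn, -0.0181 to 0.127 for His and -0.0945 to 0.0442 for Tyr, and its difference between genotypes from -0.228 to 0.362 for Asn, -0.270 to 0.0191 for His and 0.0040 to 0.281 for Tyr. The change of CAU ranged from 0.0598 to 0.275.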
